A study of Mus musculus with 8 samples.

Results

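Mucins and goblet-type mucus proteins were followed in purified mouse Paneth cells, as 10 genes: the transmembrane mucins Muc1 and Muc13, the gel-forming mucin Muc2, and Fcgbp, Clca1, Zg16, Tff3, Agr2, Spink4 and Retnlb, which are made with it. They were chosen by symbol, by matching the Ensembl IDs of the count table to the GENCODE annotation of GRCm39, and all 10 were found among 55414 rows. In this study, wild-type (WT) mice received PBS, the vehicle control, or TNF, an inflammatory cytokine. The small intestine was taken after 3 h and Paneth cells were purified on a cell sorter, giving 4 PBS and 4 TNF mRNA libraries. Replicates are named here PBS 1 to PBS 4 and TNF 1 to TNF 4, and the number of mice behind each library is not stated in the labels. In such bulk samples, fewer cells of a type and less RNA per cell cannot be told apart.

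Mucus is built on Muc2, a very large secreted protein that is packed in the endoplasmic reticulum and Golgi, heavily O-glycosylated, and expands into a gel on release. Goblet cells make most of it, together with proteins that bind to or process the gel, while Paneth cells are mainly known for antimicrobial peptides and lysozyme but share a secretory lineage with goblet cells. Transmembrane mucins instead line the apical membrane of epithelial cells.

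Library totals ranged from 23824717 to 32576077 counts. Values are given as normalized CPM (CPM scaled by the TMM factors of edgeR) and as plain CPM (counts scaled by the library total alone). TMM factors ranged from 0.995 to 1.36 in 7 libraries and were 0.448 in TNF 4, where the Defa genes and Lyz1 took 71.8% of counts, against 48.2% to 55.3% in the other libraries. A normalized CPM in TNF 4 is therefore more than 2-fold its plain CPM. Paneth cell markers were abundant throughout (Lyz1 119011 to 454456 normalized CPM), and all 6 had positive log2 fold changes, with a median of 0.68 (0.09 without TNF 4) and Pla2g2a called (1.01, adjusted p = 0.000324). Of the 5 immune markers, Cd3e and Cd79a were at 0 in all 8 libraries, Cd52 was called higher in TNF (log2 fold change 1.69, adjusted p = 0.0118, edgeR) and the summed level was 68.5 normalized CPM in TNF 4 against 6.75 to 13.4 in the others, mostly Lyz2 (64.4 in TNF 4). Of 4 tested enteroendocrine markers 3 were called higher, Chga and Chgb each by 1.95 on the log2 scale. All 8 enterocyte markers had negative log2 fold changes, 2 of them called, and of 5 stem and cycling markers Lgr5 (-1.21) and Ascl2 (-2.13) were called lower. None of the 3 tuft markers was called. The part of these other cell types in the results that follow was not tested. The summed level of 13 other goblet cell markers was 833 to 1079 normalized CPM in PBS and 722 to 1840 in TNF, with TNF 4 the highest through Ccl9 (1262 in TNF 4). Ccl9 was left out after its values were seen. Without it the sum was 609 to 835 in PBS, 448 to 464 in TNF 1 to 3 and 579 in TNF 4. The groups did not overlap in that sum, which is a description only. S100a6 and Fxyd3 also had positive log2 fold changes (1.28 and 0.23) and were not called. None of the 13 was at 0 in every library. PBS 1 and TNF 4 stand apart for some of the mucus genes, so values without them are given where they turn a direction or a call or set most of a value.

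To show the starting sequence of the 3 members whose 2 groups did not overlap in normalized CPM, the 250 bases before the GENCODE canonical start of Muc1, Muc2 and Fcgbp in GRCm39 are printed 5′ to 3′, with capitals marking the matches to TATAAA and CAGCTG.
Muc1, chr3:89136104-89136353, plus strand: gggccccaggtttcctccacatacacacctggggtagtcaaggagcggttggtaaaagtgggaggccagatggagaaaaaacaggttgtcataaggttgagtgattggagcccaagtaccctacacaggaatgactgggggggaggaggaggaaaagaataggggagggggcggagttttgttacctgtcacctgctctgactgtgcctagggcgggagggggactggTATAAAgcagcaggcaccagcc
Muc2, chr7:141276333-141276582, plus strand: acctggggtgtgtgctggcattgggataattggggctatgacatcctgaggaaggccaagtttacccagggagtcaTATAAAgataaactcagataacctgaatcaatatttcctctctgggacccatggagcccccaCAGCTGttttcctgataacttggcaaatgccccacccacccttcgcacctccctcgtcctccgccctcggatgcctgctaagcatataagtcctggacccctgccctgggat
Fcgbp, chr7:27770411-27770660, plus strand: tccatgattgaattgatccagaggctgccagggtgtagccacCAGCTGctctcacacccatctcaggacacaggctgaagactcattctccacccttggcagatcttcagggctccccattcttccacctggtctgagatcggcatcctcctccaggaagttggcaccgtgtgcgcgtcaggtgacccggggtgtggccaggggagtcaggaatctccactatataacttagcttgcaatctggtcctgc
Both strands of the same window were searched in all 10 members and in 21770 protein-coding genes. TATAAA, the TATA box, was found in 3 members, 22 bases before the start in Muc1, 174 in Muc2 and 12 in Zg16, and in 11.9% of all promoters. CAGCTG, an E-box, the kind of site bound by basic helix-loop-helix factors, was found in Muc2 and Fcgbp and in 11.9% of all promoters. No member held TTCNNNGAA (STAT, 7.7% of promoters), TGTTTAC (FOXA, 2.72%) or TGACGT (core of an unfolded protein response element, 6.49%). For NF-kB, the factor activated by TNF, GGNNTTTCC was in 4.86% of promoters and in no member. A stricter 10-base form, which contains the former, was in 1.47% of promoters and no member, and a looser 10-base form with 5 free bases was in 47.8% of promoters and in 3 members, Fcgbp, Tff3 and Spink4. The 9-base form was picked after the counts of the other NF-kB forms were seen. These counts say only which letters lie in these windows.

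Across the 10 genes, 4 were called at an adjusted p under 0.05 (quasi-likelihood test of edgeR, Benjamini-Hochberg over 13368 tested genes): Muc1 and Muc2 were higher in TNF, Fcgbp and Clca1 lower. Among all tested genes 43.0% were called, 23.3% higher and 19.6% lower in TNF, so 4 of 10 is near the background. All 10 genes passed the filter on low counts, but Muc1 passed through its TNF libraries, and the counts over the 10 are a description. The 2 groups did not overlap for 3 of them (Muc1, Muc2 and Fcgbp), against 42.1% of all tested genes. Without TNF 4, 5 members were called, Muc1 and Muc2 higher and Fcgbp, Clca1 and Agr2 lower, with 50.4% of all genes called, 26.6% higher and 23.8% lower. The median log2 fold change of the 10 was 0.35 with all libraries and -0.30 without TNF 4, -0.20 with library size alone, -0.02 with limma-voom and 0.22 without PBS 4. By comparison, the median of all tested genes was 0.03 with all libraries and -0.02 without TNF 4.

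**Figure D1:**
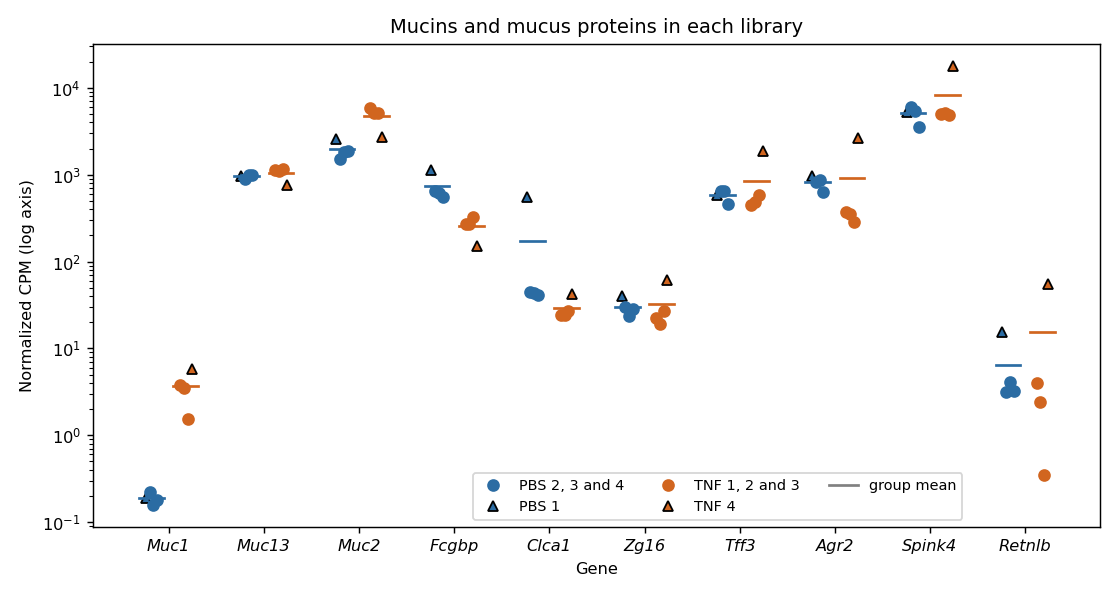
Normalized CPM (log axis) of the 10 genes in each of the 4 PBS (blue) and 4 TNF (orange) libraries, with lines for group means and triangles for PBS 1 and TNF 4. Muc1 is separated between groups, while PBS 1 stands out for Clca1 and TNF 4 for Agr2, Spink4, Tff3 and Retnlb.

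Muc1 encodes a transmembrane mucin of the apical surface and lies at chr3:89136354-89140688 on the plus strand. Its level was 0.188, 0.223, 0.158 and 0.181 normalized CPM in PBS 1 to 4 and 3.80, 3.50, 1.54 and 5.84 in TNF 1 to 4. Every TNF library lay above every PBS library, and TNF 3 was the lowest of the TNF group. This rests on 7, 6, 4 and 8 reads in PBS and 107, 101, 44 and 68 in TNF, so the PBS level is imprecise. The log2 fold change was 4.23 (SE 0.43, adjusted p = 2.37e-05, edgeR quasi-likelihood test). On plain CPM the TNF libraries, at 1.64 to 4.20, were likewise above the PBS libraries, at 0.168 to 0.246. Muc1 was called under every alternative run, and its log2 fold change was 3.96 without TNF 4. Per kilobase of exon it was the lowest of the 10 in PBS, at 0.0796 normalized CPM, and in TNF, at 1.56.

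Muc13, the other transmembrane mucin of the list and a well expressed one in intestinal epithelium, was at 978, 898, 994 and 998 normalized CPM in PBS 1 to 4 and 1120, 1112, 1163 and 753 in TNF 1 to 4. Without TNF 4 the TNF libraries lay above PBS, and TNF 4 was the lowest of all 8. The log2 fold change was 0.10 (SE 0.18, adjusted p = 0.678, edgeR quasi-likelihood test), and 0.24 without TNF 4 (SE 0.10, adjusted p = 0.0602). An antisense gene, Gm15657, covers 305 of its exonic bases, and 94.7% of the 75-base stretches of its transcript are unique, so if strand was not used in counting a part of its reads could belong to that gene.

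Muc2 encodes the gel-forming mucin of the intestine, at chr7:141276583-141308430 on the plus strand with 48 exons in its canonical transcript. It was at 2600, 1517, 1848 and 1875 normalized CPM in PBS 1 to 4 and 5879, 5120, 5150 and 2723 in TNF 1 to 4. TNF 1 to 3 were well above every PBS library, and TNF 4 was just above PBS 1, the highest of PBS. Group means were 1960 ± 457 (SD, n = 4) and 4718 ± 1376 (SD, n = 4), and the log2 fold change was 1.27 (SE 0.28; adjusted p = 0.00438, edgeR quasi-likelihood test). On plain CPM TNF 4, at 1219, was below all 4 PBS libraries, which spanned 1592 to 3264, while TNF 1 to 3 spanned 5092 to 6497. With library size as the only scaling the log2 fold change was 0.96 and no longer called (adjusted p = 0.0831), and without TNF 4 it was 1.47 (adjusted p = 3.13e-05).

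Among the proteins that accompany Muc2, Fcgbp, the IgG Fc-binding protein that is linked into the mucus gel, went the other way. Its normalized CPM was 1130, 658, 616 and 551 in PBS 1 to 4 and 274, 273, 323 and 150 in TNF 1 to 4. All TNF libraries lay below all PBS libraries, with PBS 1 the highest and TNF 4 the lowest. The log2 fold change was -1.53 (SE 0.28, adjusted p = 0.00142, edgeR quasi-likelihood test) and was -1.06 without both PBS 1 and TNF 4 (adjusted p = 9.43e-05). On plain CPM the same separation was seen, 302, 271, 343 and 67.3 in TNF 1 to 4 against 656 to 1419 in PBS. Of the 75-base stretches of its transcript 96% were unique, the rest shared with Fcgbpl1, which had no more than 0.0268 normalized CPM in any library.

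Clca1, a secreted metalloprotease that cleaves Muc2 and is abundant in goblet cells, was at 554 normalized CPM in PBS 1 and at 44.1, 43.0 and 41.1 in PBS 2 to 4. In TNF 1 to 4 it was at 23.97, 24.2, 26.8 and 42.2. PBS 1 was thus 12.9-fold above the mean of the other PBS libraries, and TNF 4 lay between PBS 3 and PBS 4 while TNF 1 to 3 were below all PBS libraries. The log2 fold change was -2.55 (SE 0.83, adjusted p = 0.0295, edgeR quasi-likelihood test). Without PBS 1 it was -0.60 (SE 0.18, adjusted p = 0.0286) and without both PBS 1 and TNF 4 it was -0.76 (adjusted p = 0.000258), so PBS 1 set most of the size of this value. The call was lost with limma-voom (-1.53, adjusted p = 0.102) and in fits without TNF 1, TNF 2 or TNF 3 (-2.51, -2.52 and -2.51). No adjusted p for Clca1 came from DESeq2.

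Zg16, a small lectin-like protein of the mucus layer, was not called (log2 fold change 0.07, SE 0.33, adjusted p = 0.877, edgeR quasi-likelihood test). It was at 39.7, 29.9, 23.5 and 28.3 normalized CPM in PBS 1 to 4 and at 22.3, 19.2, 26.9 and 60.8 in TNF 1 to 4. The groups overlapped, with TNF 4 the highest and TNF 2 the lowest. Without TNF 4 the log2 fold change was -0.40 (SE 0.17, adjusted p = 0.0714).

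**Figure D2:**
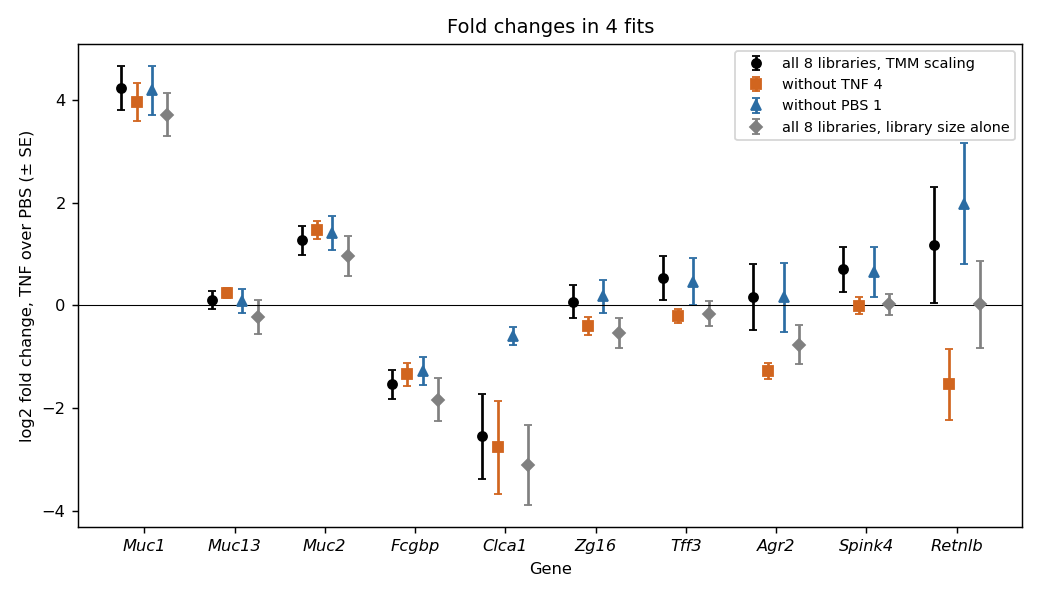
Log2 fold change, TNF over PBS, with its standard error as the bar, for the 10 genes in 4 fits. Muc1, Muc2, Fcgbp and Clca1 keep their direction in all 4, and Clca1 is closer to 0 without PBS 1. Without TNF 4, Zg16, Tff3, Agr2 and Retnlb change sign and Spink4 is at -0.0014. With library size alone, Muc13, Zg16, Tff3 and Agr2 change sign.

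Tff3, Agr2, Spink4 and Retnlb are small secreted or secretory-pathway proteins of mucous cells. Agr2, the protein disulfide isomerase that folds Muc2, was at 955, 831, 865 and 638 normalized CPM in PBS 1 to 4 and at 369, 356, 282 and 2683 in TNF 1 to 4. TNF 1 to 3 were all below the PBS libraries and TNF 4 was above all of them. The log2 fold change was 0.17 (SE 0.64, adjusted p = 0.858, edgeR quasi-likelihood test). Without TNF 4 it was -1.28 (SE 0.15, adjusted p = 4.14e-05), and on plain CPM TNF 4, at 1202, also lay above all PBS libraries, which spanned 865 to 1198.

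Spink4, a Kazal-type protease inhibitor, had the highest level per kilobase of exon of the 10 genes. Its gene level was 5328, 6042, 5353 and 3569 normalized CPM in PBS 1 to 4 and 5010, 5190, 4858 and 17906 in TNF 1 to 4. TNF 1 to 3 lay within the PBS range and TNF 4 above it. The log2 fold change was 0.70 (SE 0.45, adjusted p = 0.23, edgeR quasi-likelihood test), and -0.0014 without TNF 4 (adjusted p = 0.996).

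For Tff3, the trefoil peptide of goblet cells, normalized CPM was 584, 651, 652 and 458 in PBS 1 to 4 and 452, 482, 577 and 1885 in TNF 1 to 4. TNF 4 again exceeded every other library, and the log2 fold change of 0.54 was not called (SE 0.42, adjusted p = 0.333) and turned to -0.20 without TNF 4 (SE 0.14, adjusted p = 0.257). Retnlb, the resistin-like molecule beta secreted by goblet cells, was at 15.4, 3.12, 4.14 and 3.24 normalized CPM in PBS 1 to 4 and at 3.94, 2.39, 0.351 and 55.5 in TNF 1 to 4. PBS 1 and TNF 4 were its 2 highest libraries, and its log2 fold change of 1.17 was not called (SE 1.13, adjusted p = 0.429, edgeR quasi-likelihood test). Without TNF 4 it was -1.54 (SE 0.69, adjusted p = 0.0834).

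Compared per kilobase of exon, the order of the 10 genes in PBS was Spink4 (7125 normalized CPM per kb), Tff3 (1136), Agr2 (612), Muc13 (318), Muc2 (141), Fcgbp (70.4), Clca1 (45.2), Zg16 (21.5), Retnlb (9.30) and Muc1 (0.0796). Neighbours in this order did not overlap between libraries except Fcgbp with Clca1, Clca1 with Zg16 and Zg16 with Retnlb. Clca1 stood above Zg16 in PBS 1 alone (147 against 28.2 normalized CPM per kb) and below it in PBS 2 to 4 (10.9 to 11.7 against 16.7 to 21.2). As a share of all counts, the 10 genes held 1.22% ± 0.209 (SD, n = 4) in PBS and 1.30% ± 0.118 (SD, n = 4) in TNF, and the groups overlapped. Of the counts outside the Defa genes and Lyz1 they held 2.52% ± 0.347 (SD, n = 4) in PBS and 3.13% ± 0.705 (SD, n = 4) in TNF, with TNF 4 the highest at 4.17%. Within the 10, Spink4 and Muc2 together held 65.1% to 70.8% of counts in PBS and 78.5% to 82.8% in TNF. Muc2 alone held 14.2% to 23.0% in PBS, 40.7% to 44.7% in TNF 1 to 3 and 10.4% in TNF 4, where Spink4 held 68.2%.

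PBS 1 was compared with the mean of PBS 2 to 4, as a description. Clca1 was the gene with the largest ratio of PBS 1 to the highest other library, 12.6-fold, among 8406 genes with at least 5 normalized CPM in PBS 1, followed by Scin at 5.21-fold, Scd2 at 1.78-fold, Fer1l6 at 1.76-fold and Fcgbp at 1.72-fold. Against the mean of PBS 2 to 4, Retnlb was 4.30-fold, Fcgbp 1.86-fold, Muc2 1.49-fold, Zg16 1.45-fold and Agr2 1.23-fold higher in PBS 1, and Muc1, Muc13, Tff3 and Spink4 were within 0.995-fold and 1.07-fold. Of the 13 other goblet markers, Scin was 5.41-fold, S100a6 2.29-fold, Tpsg1 1.69-fold, Capn9 1.68-fold, Pla2g10 1.67-fold and Klk1 1.51-fold higher, and the other 7 lay between 1.00-fold (Lrrc26) and 1.26-fold (Bcas1), while 95% of all tested genes were under 1.29-fold. The cells had been sorted as Paneth cells, and the part of other cells in these values was not tested.

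**Figure D3:**
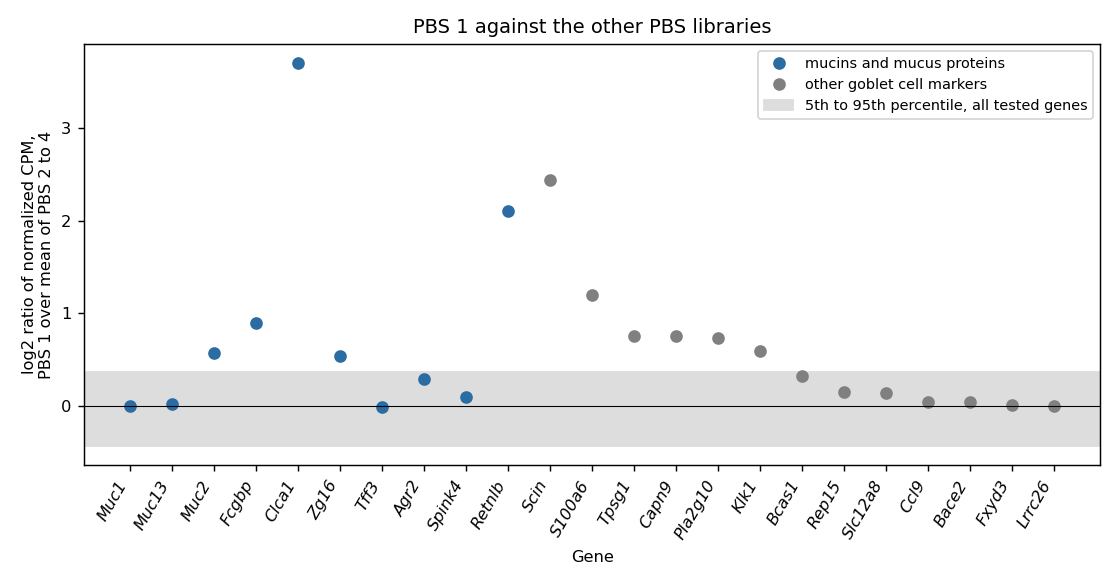
Log2 ratio of normalized CPM in PBS 1 to the mean of PBS 2 to 4, for the 10 genes (blue) and 13 other goblet cell markers (grey), with the 5th to 95th percentile of all tested genes shaded. Clca1, Scin and Retnlb lie far above the shaded range, at 12.9, 5.41 and 4.30-fold, while Tff3 and Muc1 lie near 0.

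TNF 4 was compared in the same way with TNF 1 to 3. Retnlb was 23.9-fold, Agr2 7.99-fold, Tff3 3.74-fold, Spink4 3.57-fold and Zg16 2.66-fold higher in normalized CPM in TNF 4. Muc1 was 1.95-fold and Clca1 1.69-fold higher, while Muc13, Fcgbp and Muc2 were at 0.665-fold, 0.518-fold and 0.506-fold. On plain CPM Retnlb, Agr2, Tff3 and Spink4 were still higher in TNF 4 than in TNF 1 to 3. Zg16, at 27.25 plain CPM, lay within TNF 1 to 3 (19.08 to 28.54), and so did Muc1, at 2.617 (1.641 to 4.199). Clca1, at 18.89 plain CPM, was below TNF 1 to 3 (24.07 to 28.43). The 5 members with the largest ratios in normalized CPM have exonic lengths of 516 to 1409 bases, and the 2 lowest have 10497 (Fcgbp) and 13916 (Muc2). Over all tested genes, the median ratio of TNF 4 to the other TNF libraries was 1.23-fold for genes of up to 1000 bases, 1.22-fold up to 2000, 1.09-fold up to 4000, 0.99-fold up to 8000 and 0.926-fold beyond. The genes with the largest ratio of TNF 4 to the highest other library were Tff2 (19.3-fold), Gip (11.5-fold), Lyz2 (5.28-fold), Atp5f1e (5.28-fold) and Cox7a1 (5.20-fold). In the fit of TNF against PBS with the trend with length taken out, the same 4 members were called. Its log2 fold changes, TNF over PBS, were -0.04 for Agr2, -0.05 for Zg16, 0.29 for Tff3, 0.49 for Spink4 and 0.84 for Retnlb. These are not ratios of TNF 4 to TNF 1 to 3, which were not computed without the length trend. Some cell type markers were also higher in normalized CPM in TNF 4. Of the 6 Paneth markers, Mmp7 was 3.95-fold, Ang4 3.35-fold, Defa24 3.25-fold, Lyz1 2.94-fold and Itln1 1.37-fold above TNF 1 to 3, with Pla2g2a at 0.875-fold. On plain CPM Mmp7, Ang4, Defa24 and Lyz1 were still above TNF 1 to 3. Itln1, at 34247 plain CPM in TNF 4, was below TNF 1 to 3 (57562 to 61108). The 3 tuft markers were 2.82-fold (Pou2f3) to 5.62-fold (Trpm5) higher, and the 2 tested immune markers 3.06-fold (Cd52) and 6.01-fold (Lyz2). The 8 enterocyte markers were split, from 0.361-fold (Lct) to 4.01-fold (Fabp2), with 4 of them lower in TNF 4. The 13 other goblet markers were split too, from 0.5365-fold (Bcas1) to 4.365-fold (S100a6), as were the 5 stem and cycling markers, from 0.42-fold (Top2a) to 3.19-fold (Ascl2). The 4 tested enteroendocrine markers were 1.2-fold (Cck) to 2.18-fold (Gcg) higher. On plain CPM Chga and Chgb were lower in TNF 4 than in TNF 1 to 3. What part gene length or other cells have in the TNF 4 values was not tested.

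**Figure D4:**
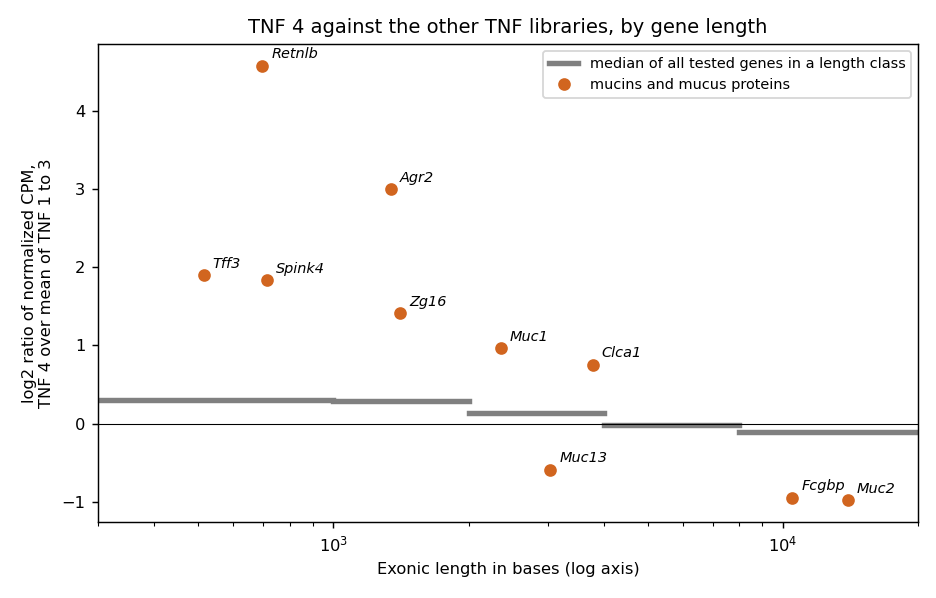
Log2 ratio of normalized CPM in TNF 4 to the mean of TNF 1 to 3 against exonic length in bases (log axis) for the 10 genes (orange), with grey bars for the median of all tested genes in 5 length classes. The 5 shortest members lie above 0 and the 2 longest below, beyond the medians of 1.23-fold and 0.926-fold, while in between Muc13 lies below 0 and the longer Clca1 above it.

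Other mucins and mucin-like genes ranged from no count to Cd164, a sialomucin of cell membranes, at 156 to 181 normalized CPM in PBS and 128 to 177 in TNF (log2 fold change -0.13, adjusted p = 0.467). Of 13 matched, 6 (Muc5ac, Muc5b, Muc15, Muc16, Muc19 and Emcn) had no count in any library and 6 were tested, with 2 called higher in TNF (23.3% of all tested genes), none lower (19.6%), and a median log2 fold change of 0.44, which was 0.25 without TNF 1. Muc4, a large transmembrane mucin, was at 15.3, 6.99, 10.5 and 13.7 normalized CPM in PBS 1 to 4 and at 34.9, 42.1, 22.5 and 28.7 in TNF 1 to 4, without overlap and and the log2 fold change was 1.46 (SE 0.25, adjusted p = 0.000922, edgeR quasi-likelihood test). Muc20 had 1.26 (SE 0.34, adjusted p = 0.0115), and Muc3a, another transmembrane mucin, 0.33 (adjusted p = 0.191). With library size alone as scaling, neither Muc4 nor Muc20 was called and the median was 0.07.

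Among the 16 relatives of Tff3, Agr2, Clca1, Spink4, Retnlb and Fcgbp, 7 were tested and 3 called lower, against 19.6% of all tested genes: Agr3 (-1.17, adjusted p = 0.0119), Clca3a2 (-1.02, adjusted p = 0.00412) and Clca4b (-0.62, adjusted p = 0.00184; edgeR quasi-likelihood test). The median of the 7 was -0.26, and it moved to -0.41 without PBS 1, -0.39 without TNF 2, -0.55 with limma-voom, -0.69 with library size alone and -0.83 over the 4 genes left by a filter of 1 CPM in 4 libraries. Tff2, the trefoil peptide of the stomach, was at 0.429, 0.930, 0.986 and 0.181 normalized CPM in PBS 1 to 4 and at 1.10, 0.727, 0.562 and 21.2 in TNF 1 to 4, with a log2 fold change of 3.17 (adjusted p = 0.0503) that rests on TNF 4. Retn, Retnla and Retnlg were at 0 in all libraries.

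Of 33 genes of mucin O-glycosylation, 29 were tested, 10 were called higher and 7 lower in TNF, with a median of 0.15, against 23.3% higher and 19.6% lower over all tested genes. With library size alone these were 3 higher and 4 lower, with a median of -0.19. C1galt1, the enzyme that makes the core 1 structure, rose (1.18, SE 0.13, adjusted p = 4.61e-05), as did the core 1 extending enzyme B3gnt3 (1.99, SE 0.17, adjusted p = 7.56e-06) and the sulfotransferase Chst4 (2.49, SE 0.27, adjusted p = 3.40e-05). St6galnac4, a sialyltransferase, fell (-0.96, adjusted p = 8.72e-05), as did Galnt12, which starts O-glycans (-0.90, adjusted p = 0.000422; edgeR quasi-likelihood test). Of the 14 genes of mucus processing and hydration, 12 were tested, 4 called higher and 4 lower, with a median of -0.29. With library size alone these were 1 higher and 3 lower, with a median of -0.64, and leaving out 1 library at a time gave 2 to 4 higher (2 without PBS 2, PBS 3, PBS 4 or TNF 2) and 2 to 5 lower (2 without PBS 1). Tgm2, a transglutaminase, rose by 2.42 on the log2 scale (adjusted p = 7e-07), and Sytl2, which takes part in granule docking, by 1.03 (adjusted p = 0.0146). Nlrp6, an innate sensor tied to goblet cell secretion, fell by 2.39 (adjusted p = 1.33e-05). Slc26a3, a chloride and bicarbonate exchanger, fell by 2.49 (adjusted p = 0.00115, edgeR quasi-likelihood test). The Slc26a3 value rests on 29 to 59 reads in PBS and 4 to 8 in TNF, so its TNF level is imprecise.

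Of 10 transcription and stress factors of the goblet lineage, all tested, 6 were called lower and 2 higher, with a median of -0.54, against 19.6% lower and 23.3% higher over all tested genes. With library size alone these were 5 lower and 0 higher, with a median of -0.89. Foxa2 (-2.33, adjusted p = 3.52e-07), Gfi1 (-3.21, adjusted p = 4.60e-06) and Atoh1 (-1.72, adjusted p = 5.51e-05), which direct the secretory lineage, and Klf4 (-1.03, adjusted p = 0.000474), a factor of goblet cell differentiation, were lower in TNF. Spdef, a goblet and Paneth cell factor, was higher by 0.41 (adjusted p = 0.0399), a call lost in 12 of 18 alternatives, among them 7 of the 8 that leave out 1 library. Foxa1, named after its values were seen, was the other higher call (0.70, adjusted p = 0.00269), lost in 1 of 18. Ern2, the endoplasmic reticulum stress sensor of mucous cells, was at -0.32 (adjusted p = 0.125). Of the 13 other goblet markers, 8 were called lower (19.6% of all tested genes) and 1, Ccl9, higher (23.3%), with a median of -0.58. The Ccl9 call (1.21, adjusted p = 0.0441) was lost in 8 of 18 alternatives, among them leaving out any 1 PBS library, and its log2 fold change was 0.42 without TNF 4. Leaving out 1 library at a time gave 6 to 9 lower and 0 to 2 higher, and with library size alone 6 lower and 0 higher, with a median of -1.06. The lists are described by counts and medians without a test of their own, beside a median of 0.03 for all tested genes.

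**Figure D5:**
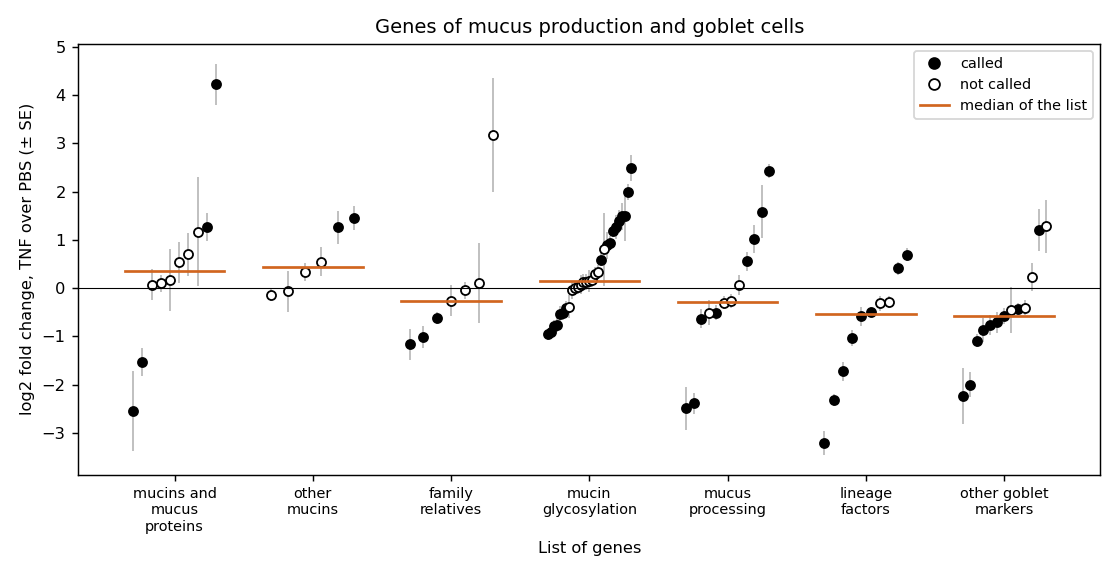
Log2 fold change, TNF over PBS, of each tested gene in 7 lists, with standard errors as bars, filled points for called genes and an orange line for each median. Lineage factors and other goblet markers have medians of -0.54 and -0.58, and the mucins and mucus proteins a median of 0.35, which is -0.30 without TNF 4.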

How the data were processed

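RNA of Paneth cells purified from the small intestine of mice was sequenced by the authors from TruSeq Stranded mRNA libraries, as given in the labels. The authors deposited raw counts per Ensembl gene ID, with no normalization. The submitters' processing notes name FastQC 0.12, STAR 2.7.10a, DESeq2 and the mm39 build. The counter of this table, its strand setting and its treatment of reads that match several genes were not given in the sources used here. IDs were matched to GENCODE release 39 of GRCm39 (54749 of 55414).

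Counts were tested with the quasi-likelihood test of edgeR 4.0.16 (limma 3.58.1 and DESeq2 1.42.0 as alternatives) in R 4.3.3 with TMM scaling, the filterByExpr filter and no covariate. Calls are Benjamini-Hochberg adjusted p under 0.05. Total counts were 23824717 to 32576077 per library, and each library was taken as 1 replicate, so p-values measure the spread between these samples. Counting error limits the low genes. The fitting code was tested on simulated data. Members and gene lists were chosen with earlier results of these data known, by a rule naming all 10 members, up to 4 called genes of each of 5 related lists and a few fixed genes. Markers are lists for other cell types. Promoters came from GRCm39, 250 bases before the canonical start. Alternatives covered scaling, filters, tools, a replicate block and leaving out each library. The fit without both PBS 1 and TNF 4 was chosen after seeing the data. So was the fit with a trend with exonic length taken out (a spline with 4 degrees of freedom). The 9-base NF-kB motif and the marker sum without Ccl9 were chosen likewise.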

Additional observations from a re-analysis of the deposited data

Results flagged for a closer look

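For each of the 10 genes, the highest and the lowest library within a group of 4 were compared with the other libraries by Dixon's gap criterion, which flags about 1 in 20 groups by chance. A total of 8 of the 20 groups were flagged. TNF 4 was the highest of its group for Clca1 (42.2 normalized CPM), Tff3 (1885), Agr2 (2683), Spink4 (17906) and Retnlb (55.5), and the lowest for Muc13 (753). On plain CPM TNF 4 was instead the lowest of its group for Clca1 (18.89). PBS 1 was the highest of its group for Clca1 (554) and Retnlb (15.4). The groups share libraries, so the flags are not independent.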

How the results depend on the processing

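Muc1 and Fcgbp were called in all alternatives run. With library size as the only scaling, the median of all genes moved to -0.38 and calls fell from 5746 to 3182 over all genes (higher in TNF from 3121 to 757, lower from 2625 to 2425), and from 38 to 19 in the related lists. The same setting gave log2 fold changes of -0.23 (Muc13), -0.16 (Tff3), -0.54 (Zg16) and -0.77 (Agr2). With limma-voom these were -0.10 (Zg16), -0.44 (Agr2) and -0.98 (Retnlb), and with no filter beyond 1 count Zg16 was at -0.0073. With both PBS 1 and TNF 4 left out (chosen after seeing the data) Tff3 was at -0.21, Zg16 at -0.25, Agr2 at -1.20 and Retnlb at -0.64. With the length trend removed (chosen likewise) Zg16 was at -0.0545 and Agr2 at -0.0418. Leaving out each library in turn gave -0.20 to 0.68 for Tff3, -0.40 to 0.20 for Zg16, -1.28 to 0.47 for Agr2, -0.0014 to 0.89 for Spink4 and -1.54 to 1.98 for Retnlb. The replicate numbers did not pair the libraries, since same-numbered libraries deviated with correlations of 0.0173, 0.0569, -0.129 and -0.116. A replicate block gave 5087 calls, with Clca1 at -1.33 and not called (adjusted p = 0.193), Zg16 at -0.0506, Agr2 at -0.67 and Retnlb at -0.50. DESeq2 gave no adjusted p for Clca1, Agr2 and Retnlb. The causes of these changes were not tested. Of 177 gene values under the alternatives, 146 kept direction and call, 25 turned direction and 6 lost a call. Depth limits Muc1 in PBS, with 4 to 8 reads.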
